A study of Mus musculus with 11 samples.

Results

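The genes examined were 43 mouse genes of the sarcomere and its Z-disc, chosen by name and matched by symbol to the gene identifiers of the count tables, which list 25006 genes. They comprised 8 thick filament genes, 11 thin filament genes, 4 genes of titin and the M-band, 16 genes of the Z-disc, costamere and intermediate filament, and 4 muscle ubiquitin ligase genes. Every name matched exactly 1 identifier, and 42 of the 43 genes passed the filter on low counts. Mybphl, which encodes a myosin binding protein H-like protein, was left out by that filter, with 0 to 7 reads in a library.

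Bulk mRNA sequencing of mouse left ventricle gave 11 libraries in 4 groups, each library with a number of its own (M45 and so on). Control mice carried Vegfc fl/fl, in which the lymphatic growth factor gene Vegfc is flanked by loxP sites and intact, and Vegfc-deficient mice carried Vegfc fl/fl with LysMCre, which directs Cre to myeloid cells and not to cardiomyocytes. Naive hearts gave 2 control and 3 deficient libraries, and MI hearts gave 3 of each genotype. MI hearts had their left anterior descending coronary artery tied off permanently and were sampled 9 days later, from the infarcted ventricle, whereas naive hearts gave a matching piece of uninjured ventricle. The labels give the control genotype as Vegfc fl/fl, the protocol names LysMCre mice as controls, and no animal age is stated. The labels do not tie libraries to animals, while the study describes its replicates as individual animals.

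The sarcomere is the contractile unit of heart muscle, in which thick filaments of myosin slide along thin filaments of actin. Troponin and tropomyosin on the thin filament make that sliding depend on calcium, the Z-disc anchors thin filaments of neighboring sarcomeres, and titin spans from the Z-disc to the M-band, where thick filaments are cross-linked. Adult ventricle uses Myl2, Myl3 and Tnni3, while Myl7 and Myl4 belong to atrial and fetal muscle and Tnni1 to slow skeletal and fetal muscle.

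Upstream sequences of 4 members are printed because they stand for the patterns described below. Myoz2 and Trim63 are a Z-disc gene and a ligase gene that fell in both genotypes. Ttn was called lower in controls alone, though its difference between genotypes did not pass the test. Tpm2 is the member that rose. Each sequence runs from 250 bases before to 50 bases after the RefSeq transcript start on GRCm38.p6, on the gene's own strand. Capitals mark matches, on either strand, to TATAAA, the letters of a TATA box, or to CATTCC, a core bound by TEAD factors, or to a MEF2-type core, which is CTA and TAG with any 4 bases between them. The windows lie at chr3:123034938-123035237 on the minus strand for Myoz2, chr2:76982498-76982797 on the minus strand for Ttn, chr4:134314870-134315169 on the plus strand for Trim63, and chr4:43523505-43523804 on the minus strand for Tpm2.
Myoz2: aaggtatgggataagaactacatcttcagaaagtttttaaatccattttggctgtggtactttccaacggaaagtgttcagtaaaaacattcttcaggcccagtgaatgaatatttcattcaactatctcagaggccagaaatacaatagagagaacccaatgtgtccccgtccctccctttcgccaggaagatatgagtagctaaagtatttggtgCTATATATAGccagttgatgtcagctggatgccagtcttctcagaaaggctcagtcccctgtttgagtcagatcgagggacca
Ttn: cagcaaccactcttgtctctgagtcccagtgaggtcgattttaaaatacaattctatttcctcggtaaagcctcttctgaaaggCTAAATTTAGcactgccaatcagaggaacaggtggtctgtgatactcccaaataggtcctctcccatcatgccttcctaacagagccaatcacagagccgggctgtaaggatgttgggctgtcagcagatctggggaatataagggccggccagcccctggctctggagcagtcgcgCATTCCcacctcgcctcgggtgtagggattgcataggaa
Trim63: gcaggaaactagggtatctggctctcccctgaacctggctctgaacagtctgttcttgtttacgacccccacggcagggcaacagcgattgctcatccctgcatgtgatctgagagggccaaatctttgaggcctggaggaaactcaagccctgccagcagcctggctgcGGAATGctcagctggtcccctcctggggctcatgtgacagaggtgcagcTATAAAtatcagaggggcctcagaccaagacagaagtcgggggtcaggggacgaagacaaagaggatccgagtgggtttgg
Tpm2: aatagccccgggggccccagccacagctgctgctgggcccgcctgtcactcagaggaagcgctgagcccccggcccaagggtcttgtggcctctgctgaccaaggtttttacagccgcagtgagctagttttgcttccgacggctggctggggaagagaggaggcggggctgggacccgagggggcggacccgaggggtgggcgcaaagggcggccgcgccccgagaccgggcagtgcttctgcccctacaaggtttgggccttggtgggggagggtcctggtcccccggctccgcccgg
The MEF2-type core was present in the windows of Myoz2 and Ttn, CATTCC in those of Ttn and Trim63, TATAAA in that of Trim63, and none of the 3 in the Tpm2 window. RefSeq windows were matched for 35 of the 43 genes, giving 47 windows. The MEF2-type core occurred in 9 of these 47 (19.1%) and in 3.69% of all 32851 mouse windows. The 9 windows belonged to 8 genes, namely Des, Ldb3, Mybpc3, Myoz2, Smpx, Synpo2l, Ttn and Xirp2. Both Ldb3 windows overlap and hold the same match. Counted by gene, the core was present in 8 of 35 members and in 4.23% of all 27025 genes. CATTCC occurred in 11 of 47 (23.4%) against 14.7% of all windows, and TATAAA in 6 of 47 (12.8%) against 13.6%. These are letter matches and not measured binding.

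Library totals ran from 10824989 to 26782728 reads, so that 3 reads, the upper limit for a gene with no reads, corresponded to 0.101 to 0.363 CPM (counts per 1000000 reads, scaled by the TMM factors of edgeR). Whole-gene Vegfc counts did not separate the genotypes, at 25.1 to 34.7 CPM in naive control, 27.5 to 34.5 CPM in naive deficient, 21.9 to 45.5 CPM in MI control and 22.4 to 29.4 CPM in MI deficient libraries. The LysMCre insertion disrupts Lyz2, and Lyz2 was 2121 to 5380 CPM in controls. In 5 deficient libraries it was 12.4 (M913), 72.5 (M150), 203 (M900), 245 (M34) and 1392 CPM (M35). M35 was thus well above the others of these 5, though below every control. M149, labelled as naive Vegfc-deficient, had 4565 CPM, within the control range. Xist was 188 to 403 CPM in the 6 MI libraries and 0.624 to 11.8 CPM in the 5 naive ones, with Y-linked counts in the opposite direction, so the sex of the animals and MI cannot be told apart here. The 25 other cardiomyocyte genes summed to 65489 to 81915 CPM in naive and 2222 to 16880 CPM in MI libraries, and 15 fibroblast genes to 6556 to 8447 CPM and 41590 to 66369 CPM. In bulk tissue, fewer cardiomyocytes and less RNA per cardiomyocyte cannot be told apart.

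Sarcomere and Z-disc transcripts made up a large share of naive heart RNA and a small one after MI. They held 10.3% and 9.68% of all counts in naive control hearts M45 and M44. In naive deficient hearts they held 9.80% (M34), 10.7% (M150) and 9.06% (M149). In MI control hearts the share was 2.59% (M38), 2.14% (M006) and 0.713% (M40), and in MI deficient hearts it was 4.57% (M35), 2.25% (M913) and 1.23% (M900). Every naive library lay above every MI library. The group means were 9.98% ± 0.424 (SD, n = 2) and 1.81% ± 0.979 (SD, n = 3) in controls, and 9.86% ± 0.826 (SD, n = 3) and 2.68% ± 1.71 (SD, n = 3) in deficient hearts. The difference of MI minus naive, averaged over the genotypes, was -7.67 percentage points (two-sided exact permutation test within genotype, p = 0.005, the smallest that its 200 assignments allow). Without the library labelled naive Vegfc-deficient M149 it was -7.87 points.

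**Figure D1:**
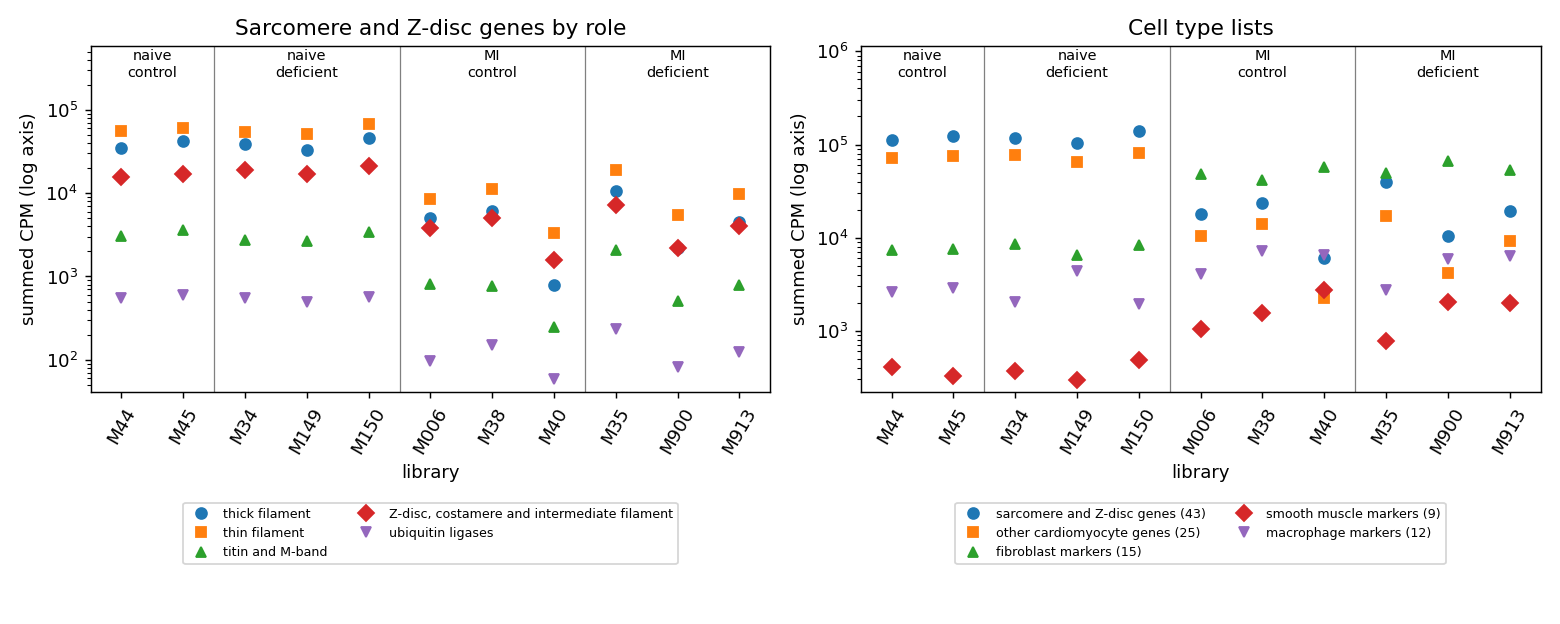
Summed CPM (log axis) in each of the 11 libraries, ordered by group, for the genes of each role (left) and for all 43 genes beside marker lists of other cardiac cell types (right), 1 point per library and list. All 5 role groups are lower in every MI library than in any naive one, with M40 lowest and M35 highest among the MI libraries, while fibroblast and smooth muscle markers are higher in every MI library.

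In control hearts, 35 of the 42 genes tested fell after MI, 1 rose and 6 did not pass the test at an adjusted p of 0.05 (edgeR quasi-likelihood test, Benjamini-Hochberg over 14779 genes). Over all genes 24.1% were called lower and 26.3% higher. The median log2 fold change of the members was -2.62, a 6.14-fold lower level, against 0.13 for all genes. In deficient hearts 33 fell, 1 rose and 8 did not pass, with a median of -2.01, against 27.7% lower, 30.0% higher and a median of 0.10 over all genes. In controls, 37 members lay lower in all MI than in all naive libraries (33.0% of all genes did), and in deficient hearts 35 did (30.7% of all genes). The calls were lower in both genotypes for 33 members and higher in both for Tpm2. Myom2 and Ttn were called lower in controls alone (the difference between genotypes did not pass the test, below), and Des, Myl4, Myl7, Synpo2l, Tnni1 and Xirp2 in neither genotype. Without the library labelled naive Vegfc-deficient M149, the deficient counts were also 33 lower and 1 higher. Under 18 other choices of tool, scaling, filter or libraries, 31 of the 36 control calls and 25 of the 34 deficient calls passed each time. Those lost at least once were Fbxo32, Myom2, Myom3, Smpx and Tcap in controls and Actc1, Actn2, Fbxo32, Lmod2, Mybpc3, Myl2, Tmod1, Trim55 and Xirp1 in deficient hearts. Conversely, each of the 8 members not called in deficient hearts passed under at least 1 alternative, as did Myl4 and Synpo2l in controls.

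**Figure D2:**
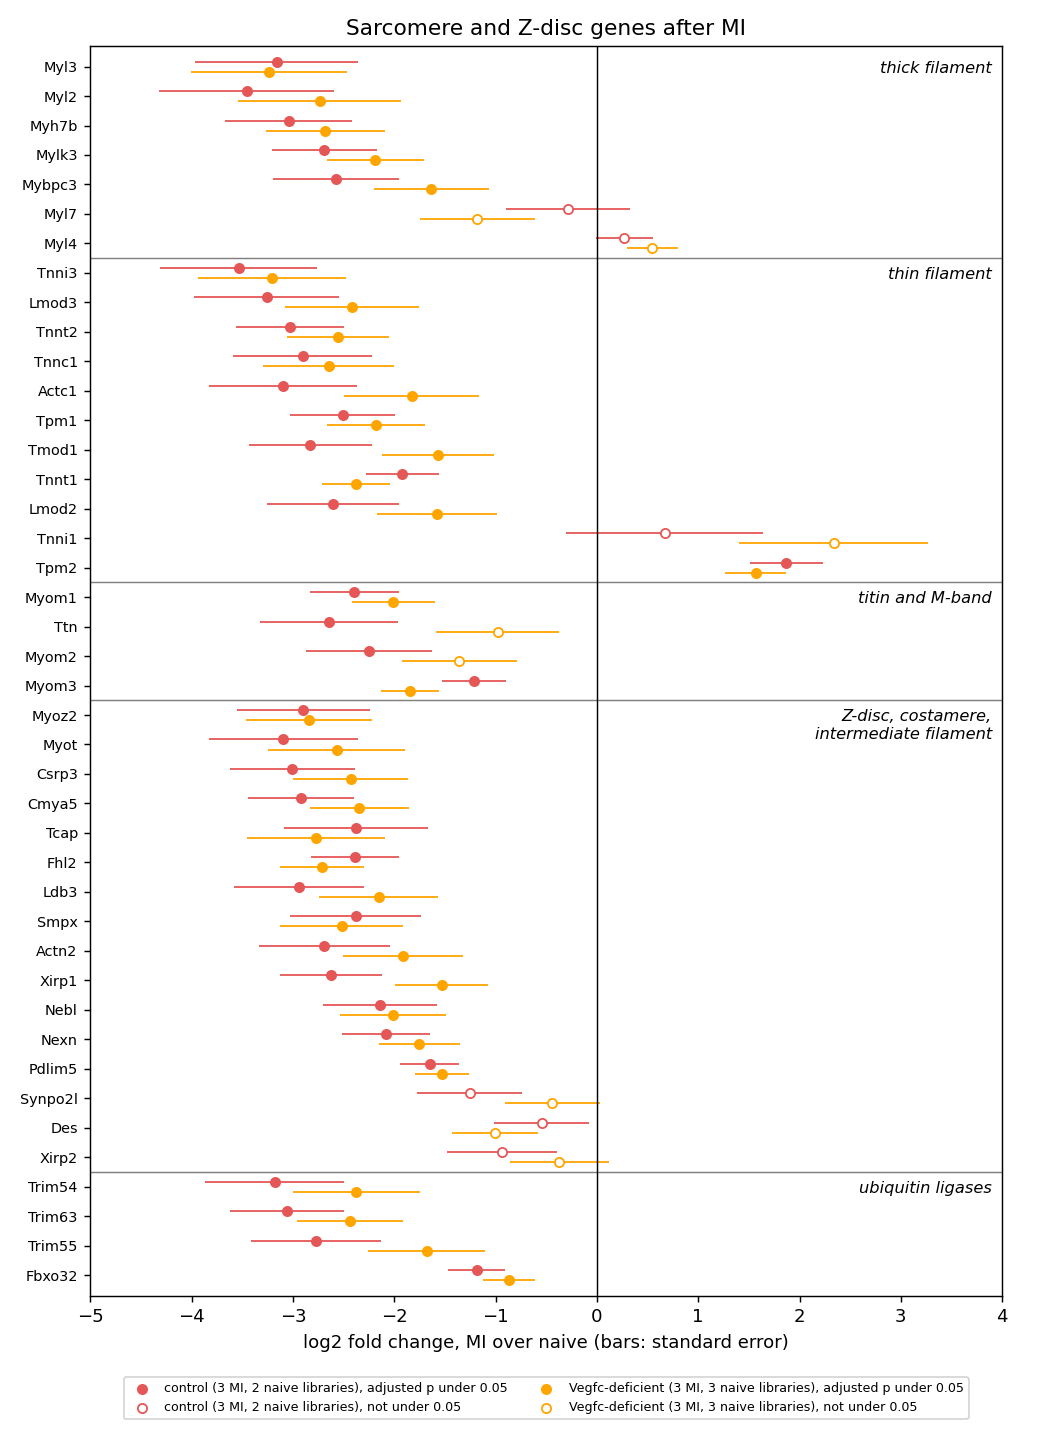
Log2 fold change of MI over naive hearts for the 42 genes tested, in blocks by role, in control (red) and Vegfc-deficient (orange) hearts. Points are edgeR estimates, bars are standard errors derived from the F statistic of the test, and filled points have an adjusted p under 0.05. In each genotype 39 genes lie left of 0, and Tpm2 is the filled pair on the right.

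Among thick filament genes, the ventricular myosin light chains and the myosin regulators fell and the atrial light chains did not pass the test. Of 7 tested, 5 fell in each genotype, with role medians of -2.69 in controls and -2.19 in deficient hearts. Myl2, the ventricular regulatory light chain (chr5:122100951-122113472, plus strand, GRCm38), had the highest level per exon length of all members in naive controls, at 12555 CPM per kilobase. It stood at 26932 and 22034 CPM in naive control hearts and at 3165, 3127 and 387 CPM in MI control hearts M38, M006 and M40. In deficient hearts it stood at 22338, 30074 and 20682 CPM (M34, M150 and M149) and after MI at 7071, 2573 and 1332 CPM (M35, M913 and M900). No MI library reached the lowest naive one, and M40 was by far the lowest of all. Myl2 fell by 3.46 on the log2 scale in controls (SE 0.87, adjusted p = 0.00795), an 11-fold lower level, and its log2 fold change in deficient hearts was -2.74 (SE 0.80, adjusted p = 0.0144; 0.0606 without M913). Myl3, the ventricular essential light chain, fell by 3.16 (SE 0.81, adjusted p = 0.00866) and 3.24 (SE 0.77, adjusted p = 0.00497), from 12407 and 10441 CPM to 2237, 1366 and 222 CPM in controls and from 13641, 13122 and 10008 CPM to 2081, 1352 and 471 CPM in deficient hearts.

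The other 3 thick filament genes that fell were at lower levels. Mybpc3, cardiac myosin binding protein C, which tethers myosin heads, had log2 fold changes of -2.58 (control) and -1.63 (deficient), the latter lost in 6 of the 18 alternatives (adjusted p up to 0.106). Mylk3, the cardiac kinase that phosphorylates the regulatory light chain, had -2.69 and -2.19. Myh7b, a slow-tonic myosin heavy chain gene that hosts a microRNA, had -3.04 and -2.68 at only 16.3 to 23.6 CPM in naive hearts. Myh7b overlaps Trpc4ap on the opposite strand, the strand setting of the counting is not given in the sources used here, and its 1366 reads over all libraries stand beside 22301 for Trpc4ap.

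The atrial light chains were present at a few CPM throughout. Myl4 was at 5.62 and 4.01 CPM in naive control, 5.53, 4.96 and 4.12 CPM in naive deficient, 6.36, 5.49 and 5.58 CPM in MI control and 7.46, 5.09 and 8.85 CPM in MI deficient libraries. The log2 fold changes were 0.27 (SE 0.28, adjusted p = 0.445) in controls and 0.55 (SE 0.25, adjusted p = 0.0848) in deficient hearts, with overlapping groups. With library totals in place of TMM it passed in both (adjusted p 0.0469 and 0.00404), and without M913 in deficient hearts (adjusted p = 0.0314). Myl7 was at 6.16 and 1.25 CPM in naive control and at 2.57, 1.83 and 4.66 CPM in MI control libraries. In deficient hearts Myl7 was at 3.01, 4.96 and 2.84 CPM before and 1.47, 1.12 and 2.14 CPM after MI. The deficient groups did not overlap, but the log2 fold change of -1.18 (SE 0.57, adjusted p = 0.0984) did not pass the test. In an edgeR fit of the compared groups alone the deficient value passed (-1.15, adjusted p = 0.0277). The control value of -0.29 (SE 0.61, adjusted p = 0.716) moved to 1.28 without M45 and to -1.02 without M44, and it had the opposite sign with library totals in place of TMM and with limma-voom. Of the atrial marker list, Sln and Bmp10 were at most 1.47 and 0.124 CPM in any library. Nppa, the atrial natriuretic peptide gene, which stressed ventricle also expresses, was at 387 to 1240 CPM in naive and 1406 to 5811 CPM in MI libraries. Of 7 atrial list genes tested, 5 were called lower in each genotype, with 1 called higher in controls and 2 in deficient hearts. The list, with Nppa included, summed to 648 to 1521 CPM in naive and 1478 to 5905 CPM in MI libraries. The median log2 fold change of the 7 tested went the other way, at -2.59 in controls and -1.94 in deficient hearts. The part of atrial tissue in the light chain values was not tested.

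Among thin filament genes, 9 of 11 fell in each genotype, 1 rose and 1 did not pass, with medians of -2.83 and -2.18. Tnni3, the cardiac inhibitory subunit of troponin, had the largest change, from 11542 and 10406 CPM to 1484, 1150 and 204 CPM in controls (M38, M006, M40). In deficient hearts it went from 11645, 11516 and 9858 CPM to 1995, 1186 and 401 CPM (M35, M913, M900). The groups were far apart, and Tnni3 fell by 3.54 on the log2 scale in controls (SE 0.78, adjusted p = 0.00416), an 11.6-fold lower level, and its log2 fold change in deficient hearts was -3.20 (SE 0.73, adjusted p = 0.00393). Its partners Tnnt2, which binds tropomyosin, and Tnnc1, which binds calcium, had log2 fold changes of -3.03 and -2.91 in controls and of -2.56 and -2.65 in deficient hearts. Tnnt2 was at 15674 and 14067 CPM in naive control and 2534, 2028 and 899 CPM in MI control hearts, and at 14956, 15585 and 12753 CPM before and 3835, 2295 and 1235 CPM after MI in deficient hearts. Tnnt1, slow skeletal troponin T, was far lower, at 29.2 and 24.6 CPM in naive control, 27.9, 39.0 and 36.9 CPM in naive deficient, 6.32, 10.8 and 4.37 CPM in MI control and 9.11, 6.34 and 4.61 CPM in MI deficient hearts. Its changes of -1.92 (SE 0.36, adjusted p = 0.00179) and -2.38 (SE 0.34, adjusted p = 0.000264) were called in both genotypes, with no overlap.

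Actc1, cardiac alpha-actin and the core of the thin filament, was at 12567 and 12558 CPM in naive control hearts and at 2471, 1432 and 495 CPM after MI. The deficient hearts had 9302, 16456 and 9232 CPM and after MI 6305, 2154 and 1388 CPM. The groups did not overlap, and M35 was the MI heart nearest to the naive ones. Actc1 fell by 3.10 (SE 0.73, adjusted p = 0.00607) in controls and by 1.83 (SE 0.67, adjusted p = 0.0369) in deficient hearts, and the latter call was lost in 7 of the 11 fits that left out 1 library, with adjusted p up to 0.126. Lmod2 and Lmod3, leiomodins that add actin at filament ends, fell in both genotypes. Lmod2 was at 536 and 437 CPM before and 122, 92.2 and 25.6 CPM after MI in controls, and at 455, 543 and 445 CPM before and 307, 107 and 70.1 CPM after MI in deficient hearts, with log2 fold changes of -2.61 (SE 0.65, adjusted p = 0.00764) and -1.58 (SE 0.59, adjusted p = 0.0412). Its deficient call was lost with library totals in place of TMM (adjusted p = 0.117) and in 8 of the 11 fits short of 1 library. Lmod3 was at 165 and 141 CPM before and 27.6, 17 and 3.16 CPM after MI in controls, and at 125, 171 and 130 CPM before and 43.4, 26.1 and 10.4 CPM after MI in deficient hearts, with -3.26 (SE 0.72, adjusted p = 0.00425) and -2.42 (SE 0.66, adjusted p = 0.0101). Tmod1, tropomodulin, which caps the filament end, went from 74.7 and 80.9 CPM to 18.2, 9.85 and 4.73 CPM in controls and from 70.2, 90.9 and 60.6 CPM to 47.4, 17.1 and 10.5 CPM in deficient hearts. Its log2 fold changes were -2.83 (SE 0.61, adjusted p = 0.00378) and -1.57 (SE 0.55, adjusted p = 0.0315), with 2130 reads over all libraries on Tstd2, which overlaps it on the opposite strand, beside 6282 on Tmod1. The deficient call for Tmod1 was lost with library totals and without M006, M900, M913, M150 or M34 (adjusted p 0.0529 to 0.114).

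Tropomyosin genes went in opposite directions. Tpm1, the main cardiac tropomyosin, was at 14171 and 13401 CPM in naive control and 3277, 2754 and 1234 CPM in MI control hearts. In deficient hearts Tpm1 was at 12623, 18384 and 13768 CPM before and 5137, 2906 and 1838 CPM after MI. The groups did not overlap in either genotype, with log2 fold changes of -2.51 (SE 0.52, adjusted p = 0.003) and -2.18 (SE 0.48, adjusted p = 0.00328). Tpm2, beta-tropomyosin, which smooth muscle and slow skeletal muscle also use, was at 44.9 and 54.3 CPM in naive control hearts and at 158, 133 and 254 CPM in MI control hearts M38, M006 and M40. Deficient hearts had 63.2, 60.4 and 48.4 CPM and after MI 102, 193 and 214 CPM (M35, M913, M900). Every MI library lay above every naive one. Tpm2 rose 3.66-fold in controls (log2 fold change 1.87, SE 0.36, adjusted p = 0.00202) and 2.96-fold in deficient hearts (1.57, SE 0.30, adjusted p = 0.00157). Among MI libraries Tpm2 was highest in M40 and lowest in M35, the opposite ends to those of most members. The 9 smooth muscle markers moved with Tpm2. They summed to 296 to 481 CPM in naive libraries and to 1551, 1031 and 2731 CPM in MI control and 780, 1998 and 2011 CPM in MI deficient libraries, in the same library order as Tpm2, and 7 of 9 were called higher in each genotype, among them Acta2, Actg2, Cnn1, Myh11 and Tagln. The 15 fibroblast genes rose too, from 6556 to 8447 CPM in naive to 41590 to 66369 CPM in MI libraries. Which cells the Tpm2 counts came from was not tested.

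Tnni1, slow skeletal troponin I, was near the detection limit. It had 7 and 3 reads in naive control, 5, 0 and 2 in naive deficient, 15, 10 and 30 in MI control and 4, 53 and 22 in MI deficient libraries. On the CPM scale the groups overlapped, and the log2 fold changes of 0.67 (SE 0.97, adjusted p = 0.588) and 2.34 (SE 0.94, adjusted p = 0.0534) did not pass. The deficient value passed with DESeq2 (adjusted p = 0.0362), with limma-voom (adjusted p = 0.0379) and without M35 (adjusted p = 0.0149).

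Of the titin and M-band genes, all 4 fell in controls and 2 of 4 in deficient hearts, with medians of -2.32 and -1.60. Ttn, the elastic protein that spans the sarcomere (chr2:76703980-76982547, minus strand), was at 1465 and 1380 CPM in naive control hearts and at 319, 275 and 87.8 CPM after MI. In deficient hearts it was at 1112, 1480 and 1053 CPM and after MI at 1272 CPM in M35, 338 CPM in M913 and 240 CPM in M900. M35 thus lay within the naive range while the other MI hearts lay far below it. Ttn fell by 2.65 on the log2 scale in controls (SE 0.68, adjusted p = 0.00883), and its deficient log2 fold change of -0.98 (SE 0.61, adjusted p = 0.189) did not pass. Under the alternatives the deficient value ran from -2.07 to -0.47 and passed in 2 of them.
Myom1, which cross-links myosin in the M-band, fell in both genotypes, from 1174 and 941 CPM to 224, 282 and 96.8 CPM in controls and from 870, 1291 and 964 CPM to 350, 272 and 153 CPM in deficient hearts. The log2 fold changes were -2.39 (SE 0.44, adjusted p = 0.00169) and -2.01 (SE 0.41, adjusted p = 0.00203). Myom2, an M-band protein of the same family, had -2.25 (adjusted p = 0.0125, and 0.0718 without M45) and -1.36 (adjusted p = 0.0613). Myom3, the lowest of the family, was at 5.62 and 3.48 CPM in naive control, 7.73, 6.17 and 8.43 CPM in naive deficient, 1.83, 2.37 and 1.69 CPM in MI control and 2.53, 2.11 and 1.59 CPM in MI deficient hearts. Its log2 fold changes were -1.22 (SE 0.32, adjusted p = 0.00936) and -1.85 (SE 0.29, adjusted p = 0.000467). The control call for Myom3 was lost without M45 (adjusted p = 0.126) and with library totals in place of TMM (adjusted p = 0.0685). Myom1 overlaps Myl12a on the opposite strand, with 132537 reads over all libraries beside 85392 on Myom1.

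Of the Z-disc, costamere and intermediate filament genes, 13 of 16 fell in each genotype and none rose, with medians of -2.38 and -2.08. Myoz2, calsarcin-1, which ties calcineurin to the Z-disc, was at 2971 and 2443 CPM in naive control hearts and at 541, 451 and 96.2 CPM after MI. The deficient hearts had 2937, 3354 and 3170 CPM and after MI 715, 414 and 186 CPM. The groups did not overlap, and the log2 fold changes were -2.90 (SE 0.66, adjusted p = 0.00485) and -2.85 (SE 0.62, adjusted p = 0.00309), with a difference between genotypes of 0.05 (SE 0.87). Tcap, telethonin, which caps titin at the Z-disc, had the highest level per exon length of this role in naive controls. It was at 1986 and 1666 CPM before and 671, 296 and 85.6 CPM after MI in controls, and at 3068, 2115 and 2364 CPM before and 566, 396 and 142 CPM after MI in deficient hearts. The log2 fold changes were -2.38 (SE 0.71, adjusted p = 0.0183) and -2.77 (SE 0.68, adjusted p = 0.00584), and the control call was lost without M45, without M44 or without M006 (adjusted p 0.0779, 0.053 and 0.0609).

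The remaining Z-disc genes that fell covered scaffolds and stretch-linked proteins. Actn2, alpha-actinin 2, the main cross-linker of the Z-disc, had log2 fold changes of -2.69 and -1.91. Myot, myotilin, an actin and alpha-actinin binding protein, had -3.09 and -2.57 and was down to 0.624 CPM in M40. Csrp3, the muscle LIM protein, had -3.01 and -2.43, and the LIM and PDZ scaffold Ldb3 had -2.94 and -2.15. Fhl2, a LIM protein that binds titin, was at 1889 and 2294 CPM in naive control and 2936, 3239 and 2729 CPM in naive deficient hearts, and at 527, 463 and 210 CPM and 646, 459 and 249 CPM after MI. Its log2 fold changes were -2.39 and -2.72, while Pdlim5, a further PDZ and LIM protein, had -1.65 and -1.53. Smpx, Cmya5, Nebl and Nexn had control values of -2.38, -2.92, -2.14 and -2.09. All of these were called in both genotypes, though Smpx in controls was lost without M45 (adjusted p = 0.0507) and Actn2 in deficient hearts without M913, M900 or M150 (adjusted p 0.0513 to 0.0676).

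The Xin repeat genes, whose actin-binding products sit at cell junctions and the costamere, behaved unequally. Xirp1 was at 67.8 and 72.6 CPM in naive control and 64.5, 74.1 and 63.1 CPM in naive deficient hearts. After MI it was at 17.4, 10.7 and 5.87 CPM in control and at 41.9, 15.8 and 12.3 CPM in deficient hearts, and it fell by 2.63 (SE 0.50, adjusted p = 0.00211) and 1.53 (SE 0.46, adjusted p = 0.0155) on the log2 scale. The deficient call was lost with library totals, without M913 and without M900 (adjusted p 0.0594, 0.0682 and 0.0592). Xirp2 was at 465 and 391 CPM in naive control and 257, 294 and 119 CPM in MI control hearts. In deficient hearts it was at 488, 758 and 417 CPM and after MI at 777, 319 and 190 CPM, with M35 above every naive library. The log2 fold changes of -0.94 (SE 0.54, adjusted p = 0.17) and -0.37 (SE 0.49, adjusted p = 0.534) did not pass, and the deficient value became -1.12 (adjusted p = 0.0413) without M35. Xirp1, with 5872 reads over all libraries, overlaps the macrophage gene Cx3cr1, with 9988, so that reads at the overlap are uncertain. Des, which encodes desmin, the intermediate filament that links Z-discs, was at 1325 and 975 CPM in naive control and 1144, 732 and 486 CPM in MI control hearts, and at 1507, 2465 and 1232 CPM before and 1257, 862 and 472 CPM after MI in deficient hearts. The groups overlapped, and the log2 fold changes did not pass, at -0.55 (SE 0.47, adjusted p = 0.349) and -1.01 (SE 0.43, adjusted p = 0.0642). Under the alternatives they ran from -0.98 to -0.11 and from -1.38 to -0.48. Desmin is also made by smooth muscle cells, whose markers are given above beside Tpm2. Among MI libraries Des was highest in M35, where those markers summed lowest, at 780 CPM. Which cells the Des counts came from was not tested. Synpo2l, a Z-disc actin-binding protein, had -1.26 (adjusted p = 0.0657) and -0.44 (adjusted p = 0.444), with M35 at 88.7 CPM against 60.1 to 68.4 CPM in naive hearts. Under the alternatives its log2 fold changes ran from -1.52 to -0.82 in controls and from -1.33 to 0.06 in deficient hearts.

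The muscle ubiquitin ligase genes fell along with the filaments, 4 of 4 in each genotype, with medians of -2.92 and -2.03. Trim54, a MURF family protein that binds titin and microtubules, was at 245 and 242 CPM in naive control and 49.5, 24.2 and 6.57 CPM in MI control hearts. Deficient hearts had 212, 214 and 182 CPM and after MI 62.9, 38.6 and 16.0 CPM. It fell by 3.18 (SE 0.68, adjusted p = 0.00373) and 2.37 (SE 0.63, adjusted p = 0.00862). Trim63, MuRF1, which marks myosin and troponin for the proteasome, went from 199 and 196 CPM to 38.8, 23.4 and 8.92 CPM in controls and from 215, 172 and 165 CPM to 55.4, 31.1 and 15.4 CPM in deficient hearts. Its log2 fold changes were -3.06 (SE 0.56, adjusted p = 0.00174) and -2.44 (SE 0.52, adjusted p = 0.00282). Trim55, MuRF2, went from 35.2 and 35.3 CPM to 8.62, 4.52 and 2.24 CPM in controls and from 34.1, 54.7 and 40.1 CPM to 27, 7.58 and 5.83 CPM in deficient hearts. These were changes of -2.77 (SE 0.64, adjusted p = 0.00543) and -1.68 (SE 0.58, adjusted p = 0.0292), and M35 was again the MI heart nearest to the naive ones. The deficient call for Trim55 was lost with library totals and without M900, M913 or M150 (adjusted p 0.0850 to 0.108). Fbxo32, atrogin-1, the F-box protein of muscle atrophy, had the smallest change. It was at 127 and 84.2 CPM in naive control and 53.3, 45.4 and 40.2 CPM in MI control hearts, and at 96.9, 119 and 109 CPM before and 87.0, 45.8 and 45.3 CPM after MI in deficient hearts. The log2 fold changes were -1.19 (SE 0.28, adjusted p = 0.0064) and -0.87 (SE 0.26, adjusted p = 0.0159). The first was lost without M45 (adjusted p = 0.0823), and the second without M150, M913 or M900 and with library totals in place of TMM (adjusted p 0.0513 to 0.209).

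**Figure D3:**
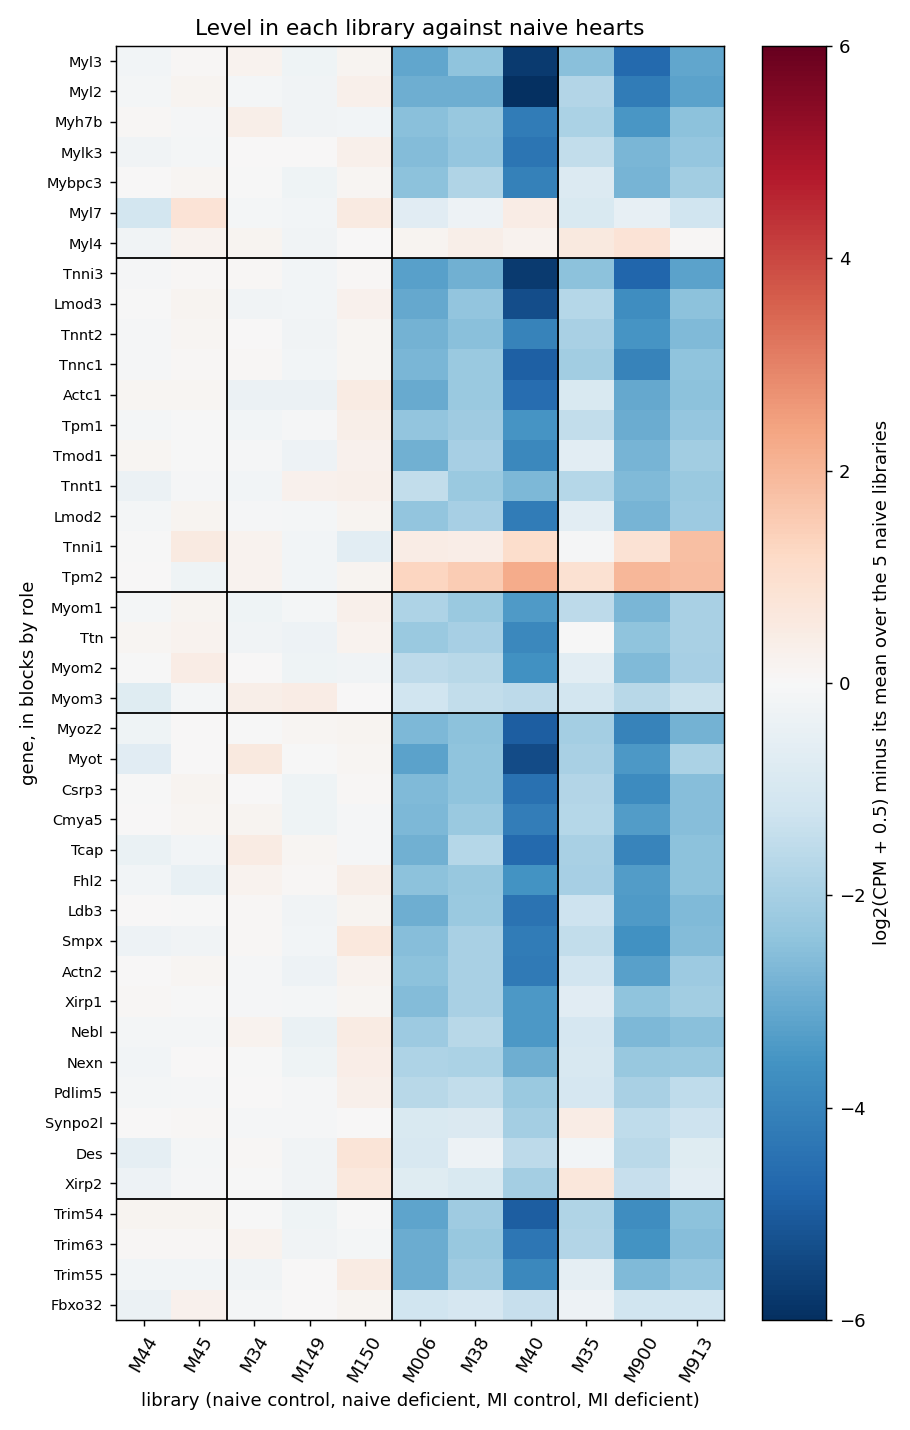
Log2(CPM + 0.5) of each tested gene in each of the 11 libraries, minus its mean over the 5 naive libraries; rows are genes in blocks by role and columns are libraries by group, with blue lower and red higher than naive hearts. The MI columns are mostly blue, darkest in M40 and palest in M35, and Tpm2 and Tnni1 are the red rows of the thin filament block.

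In these genes the MI hearts differed from one another far more than the naive hearts did. The same spread was not computed over all genes. Over the 42 genes the ratio of the highest to the lowest MI library had a median of 7.17 (1.59 to 19.7), against 1.42 (1.14 to 4.93) over the naive libraries for 41 genes, Tnni1 being left out there because M150 had 0 reads. M40, an MI control heart, was the lowest MI library for 36 of the 42 members, the exceptions being Myl4, Myl7, Tnni1, Tpm2, Myom3 and Des. M35, an MI deficient heart, was the highest for 34. The cardiomyocyte list went with this order, at 2222 CPM in M40 and 16880 CPM in M35. The median log2 fold change of the members in controls was -2.22 without M40, and in deficient hearts it was -2.65 without M35.

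Set beside other cardiomyocyte genes, most members had log2 fold changes close to theirs. The 25 cardiomyocyte genes of calcium handling, energy supply, conduction and transcription had a median log2 fold change of -2.91 in controls (23 lower, 1 higher) and -2.41 in deficient hearts (21 lower, 1 higher). In each genotype 32 of 42 members lay within 1 log2 unit of that median, 10 lay above it by more and 0 below it by more. The 8 that lay above in both genotypes were Des, Fbxo32, Myl4, Myl7, Synpo2l, Tnni1, Tpm2 and Xirp2. The ratio of the summed CPM of the members to that of the cardiomyocyte list was 1.51 to 1.71 in naive libraries. In MI libraries it was 1.66, 1.74 and 2.69 in controls (M38, M006, M40) and 2.32, 2.12 and 2.55 in deficient hearts (M35, M913, M900), so that 5 of 6 exceeded the naive range. Of the skeletal muscle genes, Myh1, Myh2, Myh4, Myh8, Tnnc2, Atp2a1 and Mybpc1 were at 0 to 0.484 CPM in all libraries. The 15 skeletal muscle genes summed to 77.0 to 160 CPM in naive and 31.4 to 82.2 CPM in MI libraries. They did not move together. Of the 8 tested, 2 were called higher and 1 lower in controls, with log2 fold changes from -1.59 to 4.51. In deficient hearts 2 were called higher and 2 lower, with log2 fold changes from -1.98 to 5.28.

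The composition of the sarcomeric counts also differed. The 7 genes with the most reads, Myl2, Tpm1, Tnnt2, Actc1, Myl3, Tnni3 and Tnnc1, held 77.6% to 79.7% of the members' reads in naive and 60.5% to 70.8% in MI libraries. Myl2 held 19.2% to 21.7% in naive and 6.47% to 18.1% in MI libraries, lowest in M40. Tpm1 held 10.9% to 13.2% in naive and 13.1% to 20.6% in MI libraries, highest in M40. These are shares of reads without correction for transcript length.

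Ratios of paired isoform genes were then compared within each library, where scaling between libraries cancels (log2 ratio of reads with 1 read added to each). Of 7 pairs, 6 differed between MI and naive hearts at an adjusted p of 0.05 (two-sided exact permutation test within genotype, 200 assignments, Benjamini-Hochberg over the 7 pairs). The ratio of Tpm2 to Tpm1 ran from -8.30 to -7.64 on the log2 scale in naive and from -5.65 to -2.28 in MI libraries, a difference of 4.12 (exact permutation p = 0.005, adjusted p = 0.00875). Myl4 to Myl3 ran from -11.33 to -11.09 and from -8.45 to -5.31, a difference of 3.97 (exact permutation p = 0.005, adjusted p = 0.00875). For both pairs all 6 MI libraries lay above all 5 naive ones, and for Myl4 to Myl3 the difference came with a lower Myl3 while Myl4 itself did not pass the edgeR test in either genotype.
Tnni1 to Tnni3 differed by 4.83 (exact permutation p = 0.005, adjusted p = 0.00875), with Tnni1 at 0 to 53 reads, and by 4.08 with 5 reads added in place of 1. For this pair and for Myl7 to Myl2, the first gene did not pass the edgeR test in either genotype, while the second was called lower in both. Myl7 to Myl2 differed by 2.90 (exact permutation p = 0.01, adjusted p = 0.0117), with the highest naive library, M45 at -12.07, above the lowest MI library, M35 at -12.18. That call was lost without M44 (difference 2.42, adjusted p = 0.138, exact permutation test).
In the other direction, Xirp1 to Xirp2 fell by 1.45 (exact permutation p = 0.005, adjusted p = 0.00875) and Lmod3 to Lmod2 fell by 0.81 (exact permutation p = 0.01, adjusted p = 0.0117), each with no overlap between naive and MI libraries. Tnnt1 to Tnnt2 differed by 0.72 with overlapping groups and did not pass (exact permutation p = 0.055, adjusted p = 0.055).

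**Figure D4:**
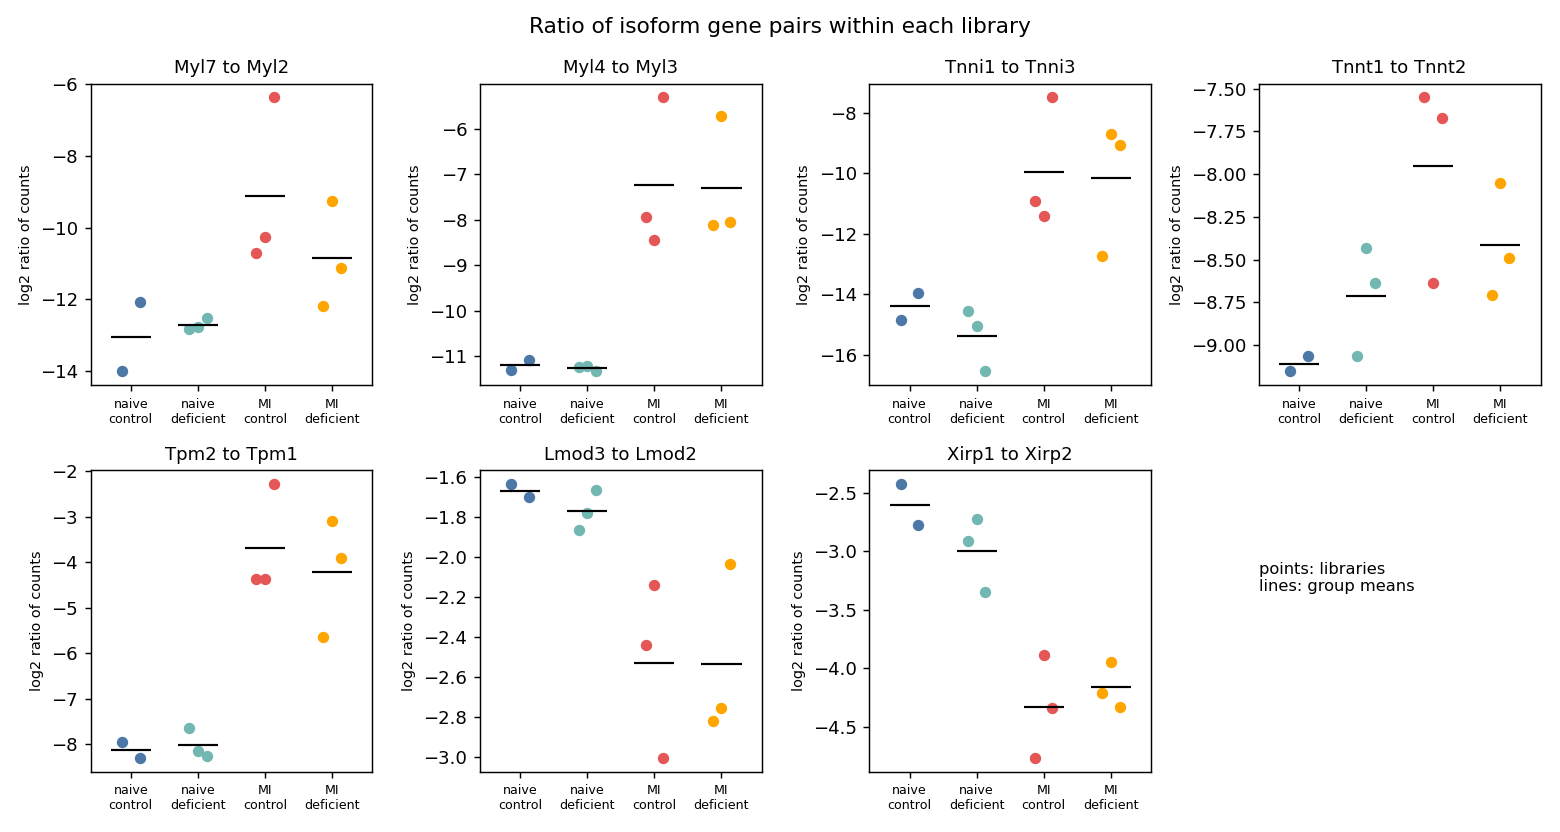
Log2 ratio of the reads of 7 pairs of isoform genes in each library, by group; points are libraries (2 naive control, 3 in each other group) and lines are group means, and the vertical scale differs between panels. The MI points lie above the naive points for Myl4 to Myl3, Tnni1 to Tnni3 and Tpm2 to Tpm1, below them for Lmod3 to Lmod2 and Xirp1 to Xirp2, and overlap them for Myl7 to Myl2 and Tnnt1 to Tnnt2.

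Among 36 further genes of the sarcomere, Z-disc and their chaperones, 22 fell and 5 rose in controls, and 22 fell and 4 rose in deficient hearts, with median log2 fold changes of -1.70 and -1.42. Myh6, the main adult myosin heavy chain, had -3.27 (SE 0.77, adjusted p = 0.00583) in controls and -2.13 (SE 0.70, adjusted p = 0.0243) in deficient hearts. Myh7, the slow myosin heavy chain of stressed ventricle, was at 244 to 495 CPM in naive and 62.3 to 661 CPM in MI hearts, and its values of -0.70 (SE 0.64, adjusted p = 0.382) and 0.03 (SE 0.58, adjusted p = 0.967) did not pass. Acta1, skeletal alpha-actin, at -0.62 and -0.65, and Ankrd1, a stretch-linked ankyrin repeat protein, at -0.70 and -0.03, did not pass either. Tmod4, Alpk2, Klhl41 and Smyd1 had control values of -3.28, -3.51, -3.20 and -3.17 and were called lower in both genotypes. The genes called higher in both genotypes were Vcl (1.40 and 2.60), Zyx (0.98 and 1.17) and Pdlim7 (0.57 and 0.74), which encode actin-anchoring proteins of focal adhesions that many cell types make.

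Among MI hearts, the members did not separate by genotype. By edgeR 0 of 42 members passed when MI deficient was compared with MI control, as did 0 of all 14779 genes (0% called). At an unadjusted p of 0.05 there were 3 members, against 7.94% of all genes. They were Ttn with a log2 fold change of 1.44 (SE 0.61, adjusted p = 0.62), Trim55 with 1.37 (SE 0.59, adjusted p = 0.623) and Xirp1 with 1.03 (SE 0.46, adjusted p = 0.626). For all 3 the highest value was that of M35, and the groups overlapped, as they did for every member tested (12.1% of all genes did not overlap). The median over the 42 members was 0.45, but -0.03 without M35 and 0.88 without M38. The summed cardiomyocyte list overlapped between these groups too, at 2222 to 14069 CPM and 4111 to 16880 CPM. DESeq2 called 51 genes in this comparison, of which 0 were members, and limma-voom called 0.

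In naive hearts the deficient and control groups gave 0 member calls by edgeR, and 0 over all genes (0% called). The member median was 0.01. At an unadjusted p of 0.05 there was 1 member, Myom3, with a log2 fold change of 0.71 (SE 0.32, adjusted p = 1), against 3.38% of all genes. The next were Des at 0.59 (SE 0.48) and Fhl2 at 0.50 (SE 0.44). Without the library labelled naive Vegfc-deficient M149, edgeR called 17 of all genes and 0 members, and the member median was 0.10. DESeq2 called 14 genes and limma-voom 6, with 0 members in each.

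The interaction, the difference between the genotypes in the response to MI, was called for 0 members and 0 of all genes by edgeR (0% called). At an unadjusted p of 0.05 there were 0 members, against 8.30% of all genes. The smallest member p-values were those of Ttn, with a difference of 1.67 (SE 0.90, adjusted p = 0.636), Xirp1 with 1.10 (SE 0.67, adjusted p = 0.66) and Tmod1 with 1.26 (SE 0.81, adjusted p = 0.668). The median difference of 0.49 became -0.04 without M35 and 0.88 without M38. The smaller changes of Ttn and Xirp1 in deficient hearts were therefore not shown to differ from those in controls. DESeq2 called 49 genes for the interaction, of which 0 were members.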

How the data were processed

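Total RNA of left ventricle was made into TruSeq Stranded mRNA libraries. The submitters' processing notes name cutadapt 1.13, STAR, HTSeq 0.6.1p1, DESeq2 1.14.1 and mm10; the annotation and strand setting are not given in the sources used here. The deposited values are raw read counts per gene, 1 table per library, which the authors did not normalize. The 43 genes, their roles and the marker lists were chosen with earlier results of these data known. Of 25006 identifiers, 24942 matched GENCODE M21 (GRCm38), which gave symbols, coordinates and exon lengths. Counts of all 11 libraries entered 1 edgeR 4.0.16 quasi-likelihood fit in R 4.3.3 (filterByExpr, TMM, 1 coefficient per group), with Benjamini-Hochberg adjustment over 14779 genes and a threshold of 0.05. CPM used TMM-scaled totals. Each SE of a log2 fold change is its absolute value divided by the square root of the quasi-likelihood F statistic. Count shares and isoform ratios were tested by exact permutation within genotype. Values in every library are given for the largest, smallest and most abundant member of each role, the isoform pairs and the smallest genotype p-values. DESeq2 1.42.0, limma 3.58.1 (voom with quality weights), other scalings, filters and thresholds, fits of single comparisons and fits short of 1 library were alternatives. Scripts were tested on simulated data. Promoter windows came from RefSeq tables.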

Additional observations from a re-analysis of the deposited data

How the results depend on the processing

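No paired analysis was possible because the library numbers are not shared between groups. Scaling by library totals in place of TMM shifted the median log2 fold change of all genes from 0.13 to 0.57 in controls and from 0.10 to 0.59 in deficient hearts, and the number of members called higher after MI from 1 to 2 (Tpm2 and Myl4) and from 1 to 3 (also Tnni1). In deficient hearts 2 members were called higher with the DESeq2 Wald test and 2 with limma-voom, and 1 to 2 when a library was left out. With library totals, Myl7 in controls was 0.19 and Xirp2 in deficient hearts 0.15, both opposite in sign to the reported values and neither called. Myl7 in controls was 0.029 with limma-voom and ran from -1.02 to 1.28 when a library was left out. The number of members called lower ran from 30 (without M45) to 36 in controls and from 24 (without M913) to 38 (without M35) in deficient hearts. At an adjusted p of 0.01 these numbers were 31 and 23, and with library totals 34 and 26. The median of the members in deficient hearts ran from -2.65 (without M35) to -1.73 (without M900). The Myl7 to Myl2 ratio ran from 2.21 (without M40) to 3.38 (without M45), and its call was lost without M44. The genotype and interaction comparisons gave 0 member calls under every alternative. Tpm2 stayed called higher in both genotypes under every alternative, at log2 fold changes of 1.36 to 2.32. The cause of these shifts was not tested. Groups hold 2 to 3 libraries, and over the members tested the MI libraries differ by a median of 7.17 times from lowest to highest. Genes under 10 CPM, such as Tnni1, Myl4, Myl7 and Myom3, rest on few reads.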
